A study of Mus musculus with 35 samples.

Results

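RNA was sequenced from mouse leukemia cells in which the fusion gene NUP98-DDX10 had been switched off for 3 days. The 3 libraries titled as NUP98_DDX10 with doxycycline at day 3 were set against the 4 untreated NUP98_DDX10 libraries, 1 of them titled day 3 and 3 titled day 5. These 7 libraries were chosen by their labels, out of 35 samples in the series, 33 of which are RNA libraries. In both groups the cells, of strain C57BL/6, carried NUP98/DDX10 under regulatable expression, came from the bone marrow of transplanted mice and had been sorted for GFP and for the leukocyte surface marker CD45.2. The day 3 group differed by doxycycline, given at 4 mg/ml for 3 days, and no libraries of fusion-free cells with doxycycline were analysed here, so the loss of the fusion and the drug itself cannot be told apart. Other libraries used below are NUP98-DDX10 after 5 days of doxycycline (3), NUP98-JARID1A and NUP98-NSD1 after 3 days (3 each) with their own untreated libraries (4 each), and 3 libraries titled as controls. All 3 fusions are listed in the labels of each control, which leaves the genotype of these cells unknown. The labels number neither animals nor primary leukemias, so each p-value weighs a difference against the spread among these libraries only, which may be technical.

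NUP98 is a nucleoporin whose front part, rich in phenylalanine-glycine repeats, is joined in some acute myeloid leukemias to the back part of another gene. The fusion proteins gather at chromatin and keep genes of the HOXA cluster and their cofactor gene MEIS1 active. These homeobox transcription factors are normally expressed in blood stem and progenitor cells and are shut down as myeloid cells mature. In NUP98-DDX10 the partner is DDX10, an RNA helicase of ribosome biogenesis. The title of the series names the kinase gene Cdk6 as a target of the fusions.

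The values below are normalized counts, which are reads in a gene divided by 1 size factor per library, and they are not divided by gene length. The day 3 libraries held 13317069 to 13825691 reads in genes and the untreated libraries 12510513 to 15554633. Between 13446 and 13532 genes were detected at day 3, against 13606 to 13816 in untreated cells, and the 50 most abundant genes took 15.6% to 16.8% of the reads against 15.1% to 16.5%. The cells carried the transcripts of myeloid cells. The granule enzyme gene Mpo had 67762 to 82547 normalized counts at day 3 and 43387 to 65139 in untreated cells, and the lysozyme gene Lyz2 had 77482 to 104115 and 51885 to 72411. Globin genes (Hba-a1, Hba-a2, Hbb-bs, Hbb-bt), the B cell factor gene Pax5 and the T cell genes Thy1 and Cd8b1 had no read in any of the 7 libraries. Most members of these lists were read: only 6 of 17 erythroid, 1 of 16 B cell and 4 of 17 T and NK cell genes had none. The B cell gene Cd79b had 1569 to 1644 normalized counts at day 3 and 1744 to 1927 in untreated cells. The T cell gene Cd28 had 746 to 820 and 1191 to 2462.

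The fusion transcript was all but gone after 3 days. The construct NUP98-DDX10 had 4.48, 3.19 and 7.29 normalized counts in the 3 doxycycline libraries, against 13956, 14121, 12715 and 9003 in the 4 untreated libraries. The means were 4.98 ± 2.10 (SD, n = 3) at day 3 and 12449 ± 2381 (SD, n = 4) in untreated cells, so 0.040% was left. The log2 fold change was -11.06 ± 0.29 (SE), with an adjusted p of 3.6e-21. The eGFP transcript, a reporter, had 2.24, 1.06 and 7.29 normalized counts at day 3 and 14453, 11064, 9082 and 7445 in untreated cells, 0.0336% left, although the cells of both groups had been sorted for GFP. Luciferase, another reporter construct, did not pass the test (adjusted p = 0.972), with 1521, 1399.9 and 1222 at day 3 and 1774, 1596, 1242 and 1398 in untreated cells. The NUP98-JARID1A and NUP98-NSD1 constructs had no read in the 7 libraries. The mouse genes of both fusion parts did not pass the test. Nup98 averaged 2499 ± 232 at day 3 and 2597 ± 373 in untreated cells (log2 fold change -0.05, adjusted p = 0.902). Ddx10 averaged 523 ± 32.5 and 451 ± 29.8 (0.21 ± 0.13, adjusted p = 0.553), with each day 3 value just above the untreated range.

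**Figure D1:**
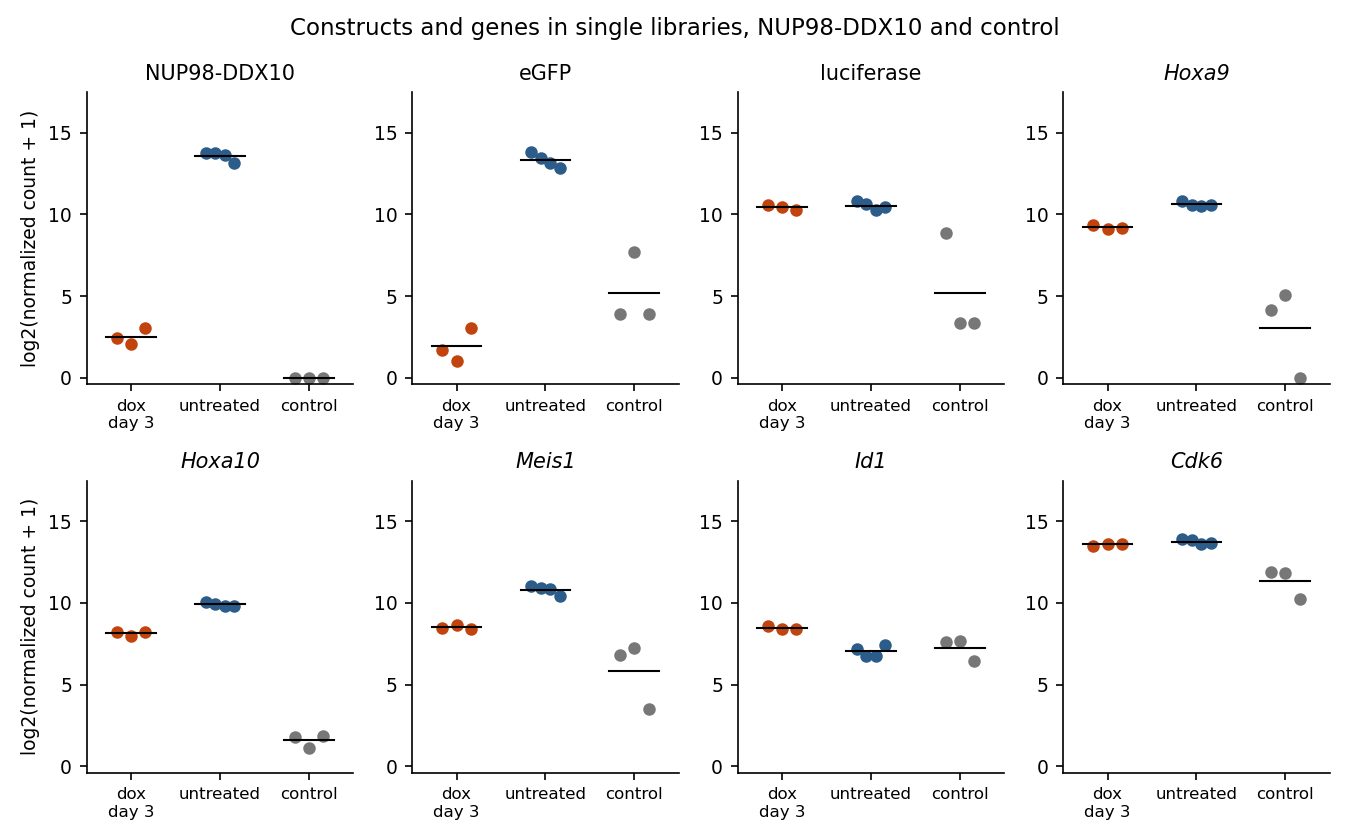
Normalized counts, as log2(value + 1), of 3 constructs and 5 genes in each of the 3 doxycycline day 3 libraries, the 4 untreated libraries and the 3 libraries titled as controls; each point is 1 library and each bar the mean of the log2 values of a group. NUP98-DDX10 and eGFP lie near 0 at day 3, and the day 3 values of Hoxa9, Hoxa10 and Meis1 all lie under the untreated ones.

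Far more genes fell than rose. In a limma fit of 10 group means over all 33 libraries on log2(value + 1), with a Benjamini-Hochberg adjusted p under 0.05, 137 of 12682 genes tested changed (1.08%). Of these, 17 rose (0.134%) and 120 fell (0.946%), so 87.6% of the changes were falls, and 8 rises and 78 falls were of at least 2-fold. The day 3 and untreated values did not overlap in 16 of the 17 rises and in all 120 falls. Over all genes tested, 9.6% had no overlap with day 3 higher and 11.9% with day 3 lower. The median log2 fold change of all genes was -0.01. An unadjusted p under 0.05 was reached by 1503 of the 12682 genes.

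This fit takes its spread from all 33 libraries. The median SD of a gene, on the log2 scale, was 0.133 among the day 3 libraries and 0.161 among the untreated ones, against 0.361 among the controls. A fit of only the 10 NUP98-DDX10 libraries (day 3, day 5 and untreated) called 333 genes higher (2.63%) and 604 lower (4.76%), so 64.5% of its calls were falls, and 131 of the 137 genes above were among them in the same direction. In what follows, rose and fell refer to the 33-library fit, and calls of the 10-library fit are named as such. The number of calls depended on single libraries in both fits. The 10-library fit called 83 genes higher and 294 lower without doxycycline library 1, and 50 and 211 without doxycycline library 3. It called 183 and 396 without the untreated library titled day 3, and 124 and 333, and 202 and 382, without untreated libraries 1 and 3 titled day 5. The 137 calls of the 33-library fit became 46 without doxycycline library 1, 51 without doxycycline library 3, 73 without the untreated library titled day 3, and 69 and 77 without untreated libraries 1 and 2 titled day 5. Of the 48 genes named below that rose or fell, 13 did so in each of the 7 fits without 1 library: Hoxa10, Hoxa7, Hoxa6, Meis1, Pknox1, Il31ra, Eya1, Tsc22d1, Rnf220, Tcf4, Cox6a2, Rag2 and Saa3. Of the 48 calls, 33 were lost without doxycycline library 1, 18 without library 2 and 29 without library 3. Without the untreated library titled day 3, 20 were lost, and without untreated libraries 1, 2 and 3 titled day 5, 24, 22 and 14.

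Genes of the Hoxa cluster and the cofactor gene Meis1 fell. The list of Hox genes and their cofactors held 24 genes, of which 4 were too low to test. Of the 20 tested, 7 fell (Hoxa2, Hoxa3, Hoxa6, Hoxa7, Hoxa10, Meis1 and Pknox1) and 1 rose, against 0.946% and 0.134% of all genes, with a median log2 fold change of -0.39. In the 10-library fit 9 fell and 0 rose. Without each of the 7 libraries in turn 9 fell there, and 1 rose only without untreated library 3 titled day 5. The gene that rose is not named here. The Hoxb genes tested were at or near 0, and 6 members of the list had no read in the 7 libraries. In bulk samples such as these, fewer cells of a type and less RNA per cell cannot be told apart.

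Hoxa10, a transcription factor gene of the cluster's back end, had 299.9, 251 and 298 normalized counts at day 3, against 1080.2, 993, 903 and 908 in untreated cells. All 3 day 3 values were far below the lowest untreated one. The log2 fold change was -1.78 ± 0.19 (adjusted p = 1.49e-06). Meis1, the homeobox cofactor that binds DNA with Hox proteins, had 348, 406 and 336 at day 3 and 2097, 1957, 1847 and 1392 in untreated cells. Its groups were far apart, with a log2 fold change of -2.31 ± 0.45 (adjusted p = 0.00627). Hoxa7 had 295, 273 and 254 at day 3 and 851, 680.3, 605 and 607 in untreated cells (-1.31 ± 0.22, adjusted p = 0.00182). Pknox1, which encodes another homeobox cofactor of the same family as Meis1, had 843, 861 and 861 at day 3 and 1297, 1219.9, 1068 and 1093 in untreated cells (-0.45 ± 0.08, adjusted p = 0.00386). The cofactor genes Pbx2 and Pbx3 had log2 fold changes of 0.07 and 0.15 (adjusted p = 0.885 and 0.767).

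Hoxa9, the Hox gene most tied to leukemia, had 653, 551 and 577 normalized counts at day 3, against 1808, 1521, 1483 and 1512 in untreated cells. No day 3 value came near an untreated one. Its log2 fold change was -1.41, but it did not pass the 33-library fit (SE 0.57, adjusted p = 0.315), whose spread for this gene includes control libraries at 16.4, 32.0 and 0. In the 10-library fit the SE was 0.11 and the adjusted p 0.000869. Hoxa5 was alike, with 114, 96.7 and 92.6 at day 3 and 325, 367, 442 and 345 in untreated cells (-1.86 ± 0.64, adjusted p = 0.199, and 0.0011 in the 10-library fit).

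The stretch of the cluster described here lies on chromosome 6 (GRCm38), from the start of Hoxa2 at 52162417 to the end of Hoxa10 at 52240854. Hoxa2 had 12.3, 18.1 and 8.33 at day 3 and 70.4, 50, 34.0 and 38.8 in untreated cells (adjusted p = 0.0199). Hoxa3 had 61.5, 58.4 and 57.2 at day 3 and 352, 250.03, 223 and 231 in untreated cells, a log2 fold change of -2.12 ± 0.52 (adjusted p = 0.0364). Both were low beside Hoxa9. Hoxa4, lower still, did not pass, with 3.36, 7.43 and 6.25 at day 3 and 20.4, 9.30, 6.80 and 17.0 in untreated cells (adjusted p = 0.306). Hoxa6 had 10.1, 5.31 and 5.20 at day 3 and 33.7, 36.1, 37.9 and 44.5 in untreated cells (-2.36, adjusted p = 0.000608).

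Noncoding transcripts of the cluster fell too. Mira, a long noncoding RNA gene between Hoxa6 and Hoxa7, had 439.7, 393 and 398 at day 3 and 1349.7, 1100.1, 1015 and 985 in untreated cells (-1.43 ± 0.34, adjusted p = 0.0326). Hoxaas3, a noncoding gene that overlaps Hoxa3, Hoxa5 and Hoxa6, had 1.12, 1.06 and 3.12 at day 3 and 8.17, 11.6, 16.5 and 15.1 in untreated cells (adjusted p = 0.0293); the counting may have ignored strand, which the notes leave unsaid, so its reads and those of the genes it overlaps cannot be told apart. The annotated span of Hoxa3 also takes in Hoxa4, Hoxa5 and Hoxa6, so how far the values of Hoxa3 to Hoxa6 are separate is uncertain. The genes on either side of the cluster did not pass. Skap2 averaged 2875 ± 160.0 at day 3 and 3139.6 ± 250.1 in untreated cells (adjusted p = 0.889), and Hibadh averaged 871 and 917 (adjusted p = 0.837). Hoxa4, Hoxa5, Hoxa9, Hoxaas3, Mira, Skap2 and Hibadh are shown for their place in the cluster, a choice made with their values known.

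**Figure D2:**
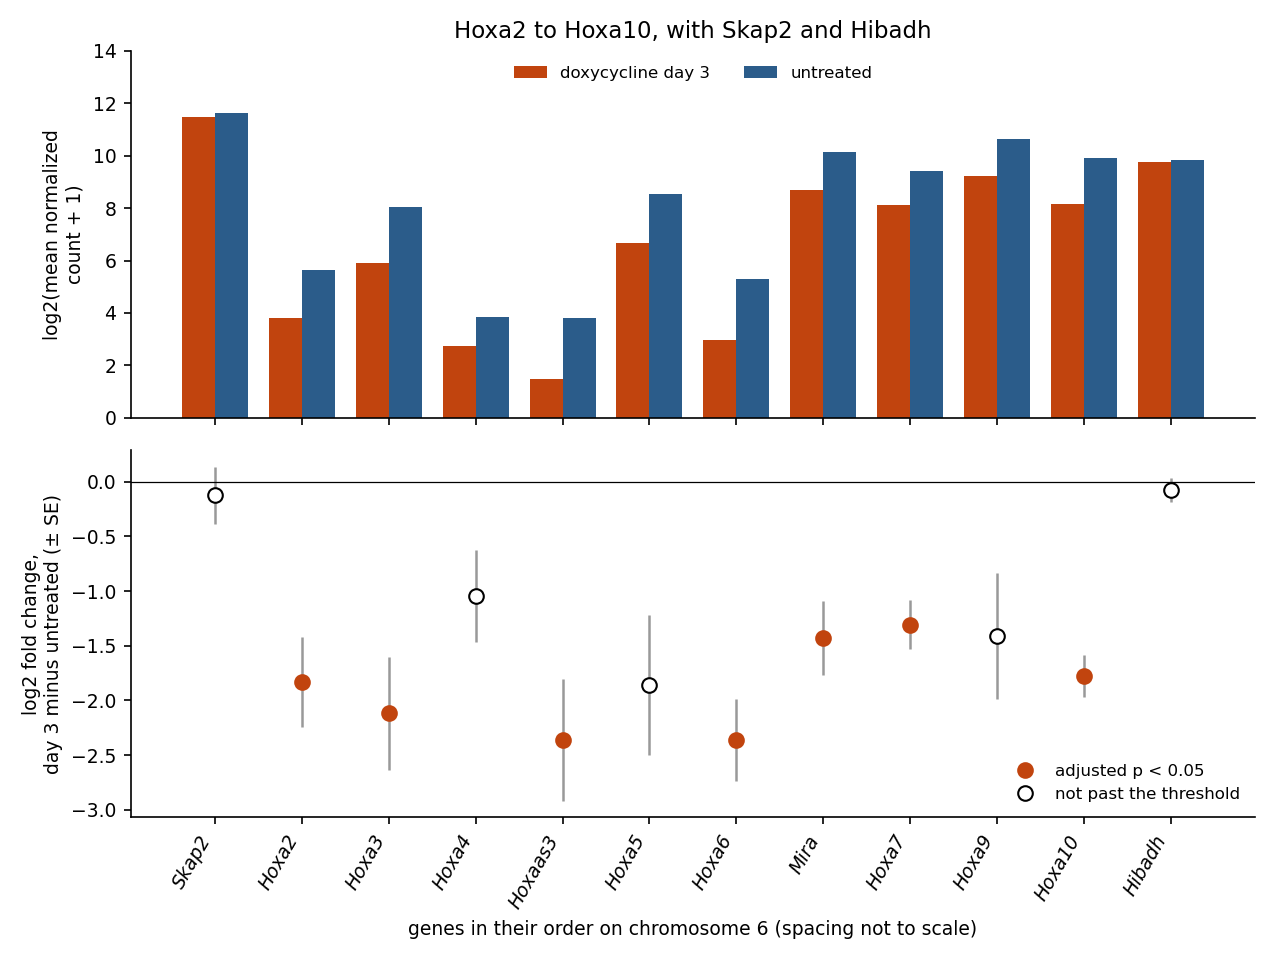
Genes of the Hoxa cluster from Hoxa2 to Hoxa10, with Skap2 and Hibadh on either side, in chromosome order; the upper bars are group means as log2(mean normalized count + 1) in doxycycline day 3 and untreated cells, and the lower points are log2 fold changes, day 3 minus untreated, with the SE of the 33-library fit. Hoxa2 to Hoxa10 lie below 0, and Skap2 and Hibadh lie near it.

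The 15 largest falls above the median level also included genes of signalling, transcription and metabolism. Among the 15 are Meis1, Hoxa10, Hoxa7 and Mira, given above. Only genes with no overlap between the day 3 and untreated values could enter the 15. Il31ra, a cytokine receptor subunit gene, had 64.9, 187 and 87.4 normalized counts at day 3, against 659, 550.1, 697 and 536 in untreated cells. Doxycycline library 2 kept more of it than the others. The log2 fold change was -2.56 ± 0.40 (adjusted p = 0.000526). Eya1, a phosphatase and transcriptional coactivator gene, had 483, 489.6 and 439 at day 3 and 1386, 1265, 1227 and 973 in untreated cells (-1.35 ± 0.18, adjusted p = 6.54e-05). Cbfa2t3, a corepressor gene of blood progenitors also known as Eto2, had 1756, 2241 and 1482 at day 3 and 6789, 4635, 3974 and 3793 in untreated cells (-1.37 ± 0.26, adjusted p = 0.00565, and 0.0654 without doxycycline library 3). Hpgd, which encodes the enzyme that inactivates prostaglandins, was the most abundant of the 15. It had 7159, 7095 and 7845 at day 3 and 15985, 15841, 17769 and 14861 in untreated cells (-1.13 ± 0.23, adjusted p = 0.00804, and 0.0594 without doxycycline library 1).

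Tsc22d1, a leucine zipper gene induced by TGF-beta, had 218, 337 and 243 at day 3 and 786, 897, 875 and 661 in untreated cells (-1.61 ± 0.22, adjusted p = 6.54e-05). Rnf220, a ubiquitin ligase gene, had 1169, 1218 and 1159.5 at day 3 and 3313, 3015, 2358 and 2639 in untreated cells (-1.25 ± 0.19, adjusted p = 0.000368). In both genes the gap between the highest day 3 and the lowest untreated value was wide. Heg1 is a transmembrane protein gene best known from blood vessels. It had 208, 416 and 233 at day 3 and 1220.1, 922, 838 and 733 in untreated cells. Tespa1, a signalling gene of thymocytes, had 241, 226 and 186 at day 3 and 461, 545, 617 and 449 in untreated cells. The calcium pump gene Atp2b4 had 789, 1292 and 816 at day 3 and 2482, 2264, 2058 and 1689.9 in untreated cells. The log2 fold changes of Heg1, Tespa1 and Atp2b4 were -1.74, -1.24 and -1.16 (adjusted p = 0.00975, 0.00662 and 0.0253). Without single libraries the highest adjusted p reached 0.103 for Heg1 (without doxycycline library 1 or 3 it missed), 0.075 for Tespa1 (doxycycline library 3) and 0.183 for Atp2b4 (5 of the 7 libraries). Rsrp1 fell as well, with a wide untreated range. It had 1811, 1233 and 1373 at day 3 and 2442, 6351, 5551 and 3913 in untreated cells (-1.56 ± 0.38, adjusted p = 0.0356, missed in 6 of the 7 fits without 1 library). The last of the 15, Irf7, belongs to the interferon genes below.

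**Figure D3:**
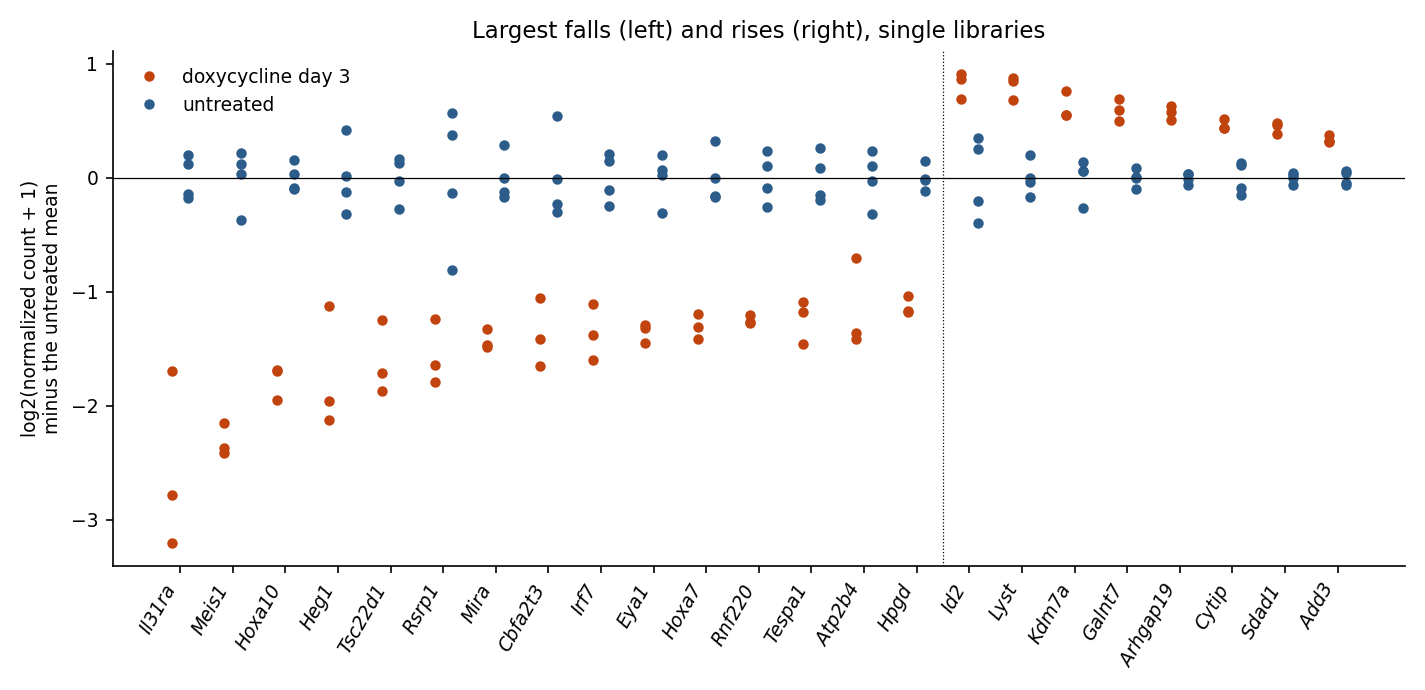
The 15 largest falls and 8 rises above the median level; each point is 1 library, as log2(value + 1) minus the mean of the untreated libraries, with the 3 doxycycline day 3 libraries left of the 4 untreated ones in each gene. Only genes with no overlap between the day 3 and untreated points could be shown. Doxycycline library 2 lies nearer to untreated than the others in Il31ra and Heg1.

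Part of the genes of blood progenitors and leukemia stem cells fell. Of 33 tested on that list, 6 fell and none rose (0.946% and 0.134% of all genes), with a median log2 fold change of -0.34. The 10-library fit called 13 lower and 1 higher (4.76% and 2.63% of all genes). It called 7 to 11 lower when 1 library was left out. The number was 7 without doxycycline library 3, the untreated library titled day 3 or untreated library 1 titled day 5. Tcf4, a basic helix-loop-helix factor gene that is also the factor of plasmacytoid dendritic cells, had 957, 1077 and 1015 at day 3, against 2038, 1941, 2073 and 1804 in untreated cells (-0.95 ± 0.14, adjusted p = 0.000253). The other 5 had few reads. Angpt1, a ligand of the receptor Tie2, had 10.1, 18.1 and 15.6 at day 3 and 102, 119, 162 and 65.3 in untreated cells (-2.82 ± 0.55, adjusted p = 0.00662). Sox4, a transcription factor gene of progenitors, had 24.6, 62.7 and 55.2 at day 3 and 272, 180.3, 234 and 146 in untreated cells (-2.17 ± 0.45, adjusted p = 0.00969). Without doxycycline library 1 the adjusted p of Angpt1 was 0.0721 and that of Sox4 0.129.

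Gfi1b, a repressor gene of the erythroid and platelet lineages, had 5.59, 5.31 and 4.16 at day 3 and 39.8, 38.4, 31.1 and 22.7 in untreated cells (adjusted p = 0.022). Muc13, a mucin gene of progenitors, had 20.1, 52.0 and 29.1 at day 3 and 311, 141, 173 and 126 in untreated cells (adjusted p = 0.0364). Cpa3, a mast cell protease gene also read in early progenitors, had 4.48, 12.7 and 17.7 at day 3 and 45.9, 32.6, 59.2 and 44.5 in untreated cells (adjusted p = 0.0202). Gfi1b missed the threshold in 6 of the 7 fits without 1 library, Muc13 in 5 and Cpa3 in 3. Among receptors of progenitors the picture was mixed. Cd34 had 4781, 6284 and 5346 at day 3 and 9418, 8889, 9435 and 7225 in untreated cells, which did not overlap but passed only the 10-library fit (-0.68 ± 0.76, adjusted p = 0.773, and 0.0277). Kit, the receptor of stem cell factor, had 983, 1391 and 1130.4 at day 3 and 1216, 1188, 1321 and 1133 in untreated cells, with an overlap (-0.07, 95% interval -0.85 to 0.71). Flt3, a receptor kinase often mutated in this leukemia, had 3044, 1271 and 3123 at day 3 and 1760.2, 3093, 2143 and 2700.5 in untreated cells, with library 2 apart from the other 2 (-0.05, 95% interval -0.85 to 0.76). Myb, a transcription factor gene of progenitors, had a log2 fold change of -0.22 (adjusted p = 0.83).

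Interferon response genes were lower at day 3 as a group, although few passed the 33-library fit. Such genes are switched on by a complex that holds STAT2 and IRF9 and binds a short promoter sequence called the interferon-stimulated response element, and by IRF7. All 42 genes tested on the list had a negative log2 fold change, with a median of -0.73 against -0.01 over all genes. In the 33-library fit 3 fell (0.946% of all genes). An unadjusted p under 0.05 was seen in 25 (1503 of 12682 over all genes). In 28 the day 3 values were all below the untreated ones (11.9% of all genes). The 10-library fit called 26 lower (4.76% of all genes), 15 without doxycycline library 1, 25 without library 2 and 14 without library 3. The summed level of the list was 26752 to 30493 normalized counts at day 3, against 34764 to 38925 in untreated cells, and 72246 to 90681 in the controls.

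The sequences below show the element in the promoters of 4 interferon genes, those with the smallest adjusted p at day 3 among the 13 that hold it wholly before the gene's start. Each runs 5′ to 3′ on the gene's strand over the 250 bases before the start, from RefSeq on GRCm38.p6, and capitals mark each match to the element, spelled as GAAA, any pair of bases, and GAAA, on either strand. A match on the opposite strand reads TTTC, a pair of bases, and TTTC in the printed line, as in Rsad2 and Stat2. Oas1a lies at chr5:120907526-120907775 (minus strand), Oas3 at chr5:120777660-120777909 (minus), Rsad2 at chr12:26456453-26456702 (minus) and Stat2 at chr10:128270248-128270497 (plus).
Oas1a: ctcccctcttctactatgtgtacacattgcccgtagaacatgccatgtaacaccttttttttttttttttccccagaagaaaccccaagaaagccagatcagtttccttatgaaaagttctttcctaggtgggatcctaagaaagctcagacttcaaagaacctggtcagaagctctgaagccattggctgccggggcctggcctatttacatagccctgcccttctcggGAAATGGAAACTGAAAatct
Oas3: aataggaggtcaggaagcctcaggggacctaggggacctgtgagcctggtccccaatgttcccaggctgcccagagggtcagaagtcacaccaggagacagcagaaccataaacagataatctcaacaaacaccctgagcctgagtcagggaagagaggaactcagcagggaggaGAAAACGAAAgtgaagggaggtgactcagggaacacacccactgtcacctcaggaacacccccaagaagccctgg
Rsad2: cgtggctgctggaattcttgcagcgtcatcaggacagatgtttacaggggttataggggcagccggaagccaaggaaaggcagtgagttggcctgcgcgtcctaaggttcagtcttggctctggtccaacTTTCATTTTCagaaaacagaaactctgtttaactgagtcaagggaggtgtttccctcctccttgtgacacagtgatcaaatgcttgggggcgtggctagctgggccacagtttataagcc
Stat2: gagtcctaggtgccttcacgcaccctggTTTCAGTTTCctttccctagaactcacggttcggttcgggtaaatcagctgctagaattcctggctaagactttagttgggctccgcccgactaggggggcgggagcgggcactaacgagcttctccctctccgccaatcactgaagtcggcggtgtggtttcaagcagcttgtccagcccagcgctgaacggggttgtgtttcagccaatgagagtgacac
The matches begin 75 bases before the start in Oas3, 120 in Rsad2 and 222 in Stat2, and Oas1a has 2 overlapping matches, 20 and 14 bases before it. In windows from 250 bases before to 50 after the start, on both strands, the element was present in 16 of the 32 interferon genes with a promoter in the table, and in 400 of 10158 genes tested (3.94%). The window held it in 0 of 7 MHC class II genes, 0 of 10 Hox genes and cofactors, and 3 of 28 mitosis genes. A palindromic E-box, CACGTG, was present in 0 of the 32 interferon genes and in 11.7% of all genes tested. A match describes these letters and does not show that a factor binds there.

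The 3 interferon genes that fell encode a regulator and 2 antiviral proteins. None of them is among the 13 genes that hold the element wholly before the start. A gene with no listed promoter, or with its only match reaching past the start, is left out of the 13 too. Irf7, the master factor of type I interferon genes, had 286, 345 and 245 at day 3, against 859.7, 627, 691 and 826 in untreated cells (-1.36 ± 0.33, adjusted p = 0.0336). Oas2, which senses double-stranded RNA, had 36.9, 52.0 and 30.2 at day 3 and 111, 117, 139 and 143 in untreated cells (-1.69 ± 0.42, adjusted p = 0.0428). Mx2, a GTPase that blocks viruses, had 8.95, 12.7 and 14.6 at day 3 and 22.5, 27.9, 34.9 and 32.2 in untreated cells (-1.22 ± 0.30, adjusted p = 0.0375). These 3 calls were near the threshold: Irf7 and Oas2 missed it in each of the 7 fits without 1 library, and Mx2 in 6.

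Oas1a, Oas3, Rsad2 and Stat2 did not pass the 33-library fit, and their groups did not overlap. Oas1a had 107, 140.2 and 103 normalized counts at day 3 and 247, 216, 280.5 and 277 in untreated cells (-1.13 ± 0.30, adjusted p = 0.069, and 0.00913 in the 10-library fit). Oas3 had 147, 153 and 119.7 at day 3 and 427, 294, 347 and 393 in untreated cells (-1.37 ± 0.40, adjusted p = 0.102, and 0.0033). Rsad2, the antiviral protein viperin, had 17.9, 29.7 and 28.1 at day 3 and 92.9, 59.3, 80.6 and 64.3 in untreated cells (-1.53 ± 0.51, adjusted p = 0.18, and 0.00979). Stat2, a factor of the pathway itself, had 657, 719 and 649.5 at day 3 and 1007, 876, 950.3 and 985 in untreated cells, a smaller difference (-0.50 ± 0.17, adjusted p = 0.204, and 0.00418).

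Further genes of the pathway had values on the same side. Irf9, the DNA-binding partner of STAT2, had 811, 845 and 663 at day 3 and 1336, 1136, 1199.8 and 1276 in untreated cells (-0.68, adjusted p = 0.0958). The RNA sensor gene Ifih1 had 358, 353 and 303 at day 3 and 563, 504, 608 and 521 in untreated cells (-0.70, adjusted p = 0.0857, and 0.00351). Ddx58, the gene of the sensor RIG-I, had a log2 fold change of -1.04 (adjusted p = 0.0672), and Usp18, a brake on the interferon receptor, a log2 fold change of -1.16 ± 0.49 (adjusted p = 0.337, and 0.00503). In none of these genes did a day 3 value reach an untreated one.

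MHC class II genes, which present antigen and are controlled by the coactivator Ciita, had lower values at day 3, least so in doxycycline library 2. None of the 10 genes passed the 33-library fit, and the median log2 fold change was -1.15. An unadjusted p under 0.05 was seen in 6 (1503 of 12682 over all genes). The 10-library fit called 5 lower (4.76% of all genes). This number was 3 without doxycycline library 1, 8 without library 2 and 2 without library 3. It was 3 without the untreated library titled day 3, and 3, 4 and 3 without untreated libraries 1, 2 and 3 titled day 5. Cd74, the invariant chain gene, had 396, 1116 and 373 at day 3 and 1807, 1572, 1098 and 1487 in untreated cells, so library 2 reached the untreated range (-1.42 ± 0.68, adjusted p = 0.408, and 0.0491). H2-Aa was alike, with 86.2, 346 and 87.4 at day 3 and 529.9, 552, 351 and 411 in untreated cells. H2-Ob, a modulator of peptide loading, had 143, 109 and 151 at day 3 and 314, 372, 336 and 321 in untreated cells (-1.32, adjusted p = 0.141, and 0.00215). Ciita itself was listed at 0, 6.37 and 0 at day 3 and at 12.3, 11.6, 10.7 and 8.52 in untreated cells. The list summed to 4804.6 to 6361 normalized counts at day 3, against 7231 to 9401 in untreated cells, and 45179 to 318655 in the controls.

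Part of the dendritic cell list was lower too. Of its 18 genes 3 fell and none rose (0.946% and 0.134% of all genes), with a median log2 fold change of -0.67. The 10-library fit called 5 lower (4.76% of all genes), and 3 without doxycycline library 1 or 3 or untreated library 3 titled day 5. The 3 that fell in the 33-library fit were Tcf4, Cox6a2 and Itgax. Cox6a2, a cytochrome oxidase subunit gene read in plasmacytoid dendritic cells, had 6.71, 12.7 and 6.25 at day 3 and 75.6, 83.7, 69.9 and 55.8 in untreated cells (-2.96 ± 0.54, adjusted p = 0.0034). Itgax, the CD11c integrin gene, had 39.2, 64.8 and 48.9 at day 3 and 115, 143, 128 and 134 in untreated cells (-1.36, adjusted p = 0.022, missed in 5 of the 7 fits without 1 library). The summed level of the list was 13818 to 14689 at day 3 and 14367 to 16159 in untreated cells, with the factor gene Irf8 making up 53.2% of it. The part of dendritic cells among the sorted cells in the interferon and MHC class II values was not tested.

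**Figure D4:**
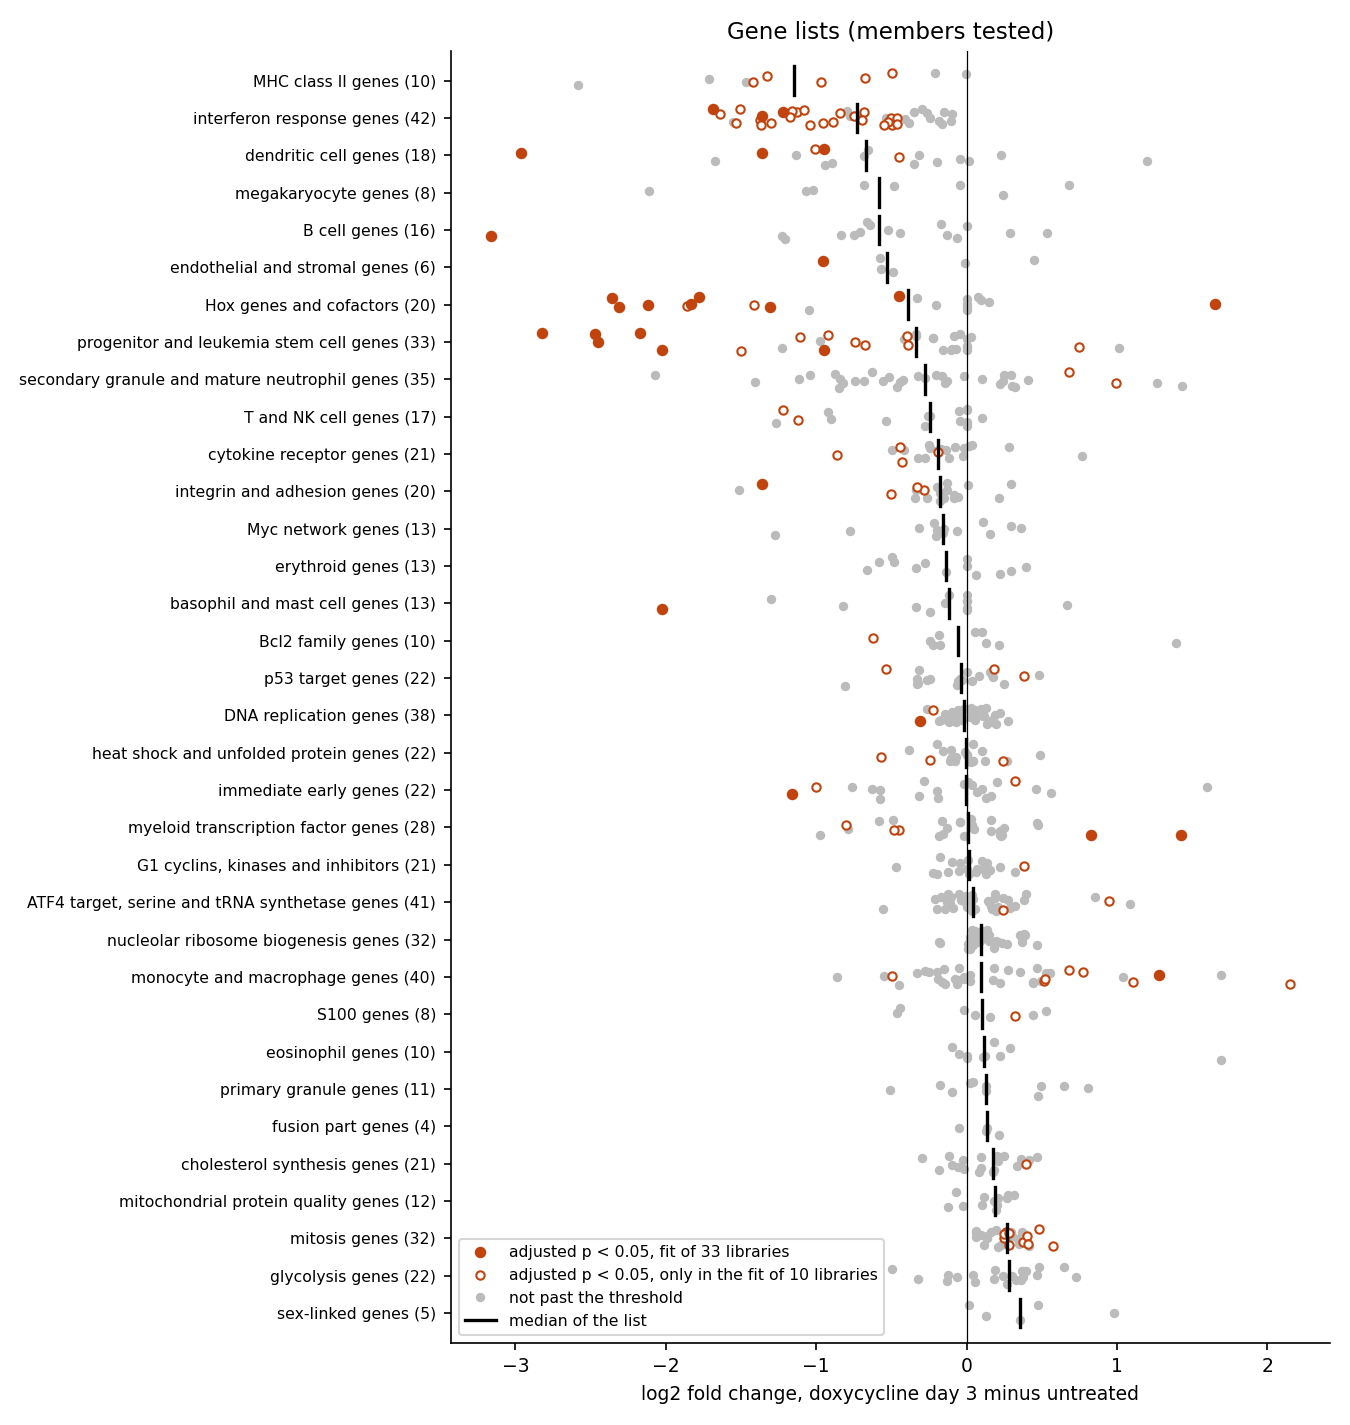
Log2 fold change, day 3 minus untreated, of every tested member of 34 gene lists; filled points passed the 33-library fit, open points passed only the 10-library fit of NUP98-DDX10 libraries, and a black bar marks each list's median. All members of the interferon list lie below 0 and all mitosis genes above it, with few filled points in either list.

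Of the 17 rises, the largest was in an acute phase gene. Saa3, a serum amyloid gene of activated macrophages, had 79.4, 123 and 129 normalized counts at day 3, against 11.2, 13.96, 9.71 and 42.6 in untreated cells (2.67 ± 0.42, adjusted p = 0.000608, and 0.0262 in the 10-library fit). A single untreated library stood above the other 3 but below every day 3 value. Gpat3, an enzyme gene of glycerolipid synthesis, had 27.97, 13.8 and 27.1 at day 3 and 7.15, 9.30, 7.77 and 4.73 in untreated cells (1.51 ± 0.32, adjusted p = 0.0113, missed without doxycycline library 1 or 3). Saa3 and Gpat3 lie below the median level, and they are named here with their values known.

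Both inhibitors of differentiation on the list of myeloid transcription factors rose. Id1 and Id2 lack a DNA-binding region and block basic helix-loop-helix factors such as Tcf4. Id1 had 385, 336 and 339 normalized counts at day 3, against 146, 108, 108 and 169 in untreated cells (1.43 ± 0.30, adjusted p = 0.0124). Id2 had 1086, 964 and 1119 at day 3 and 516, 709, 451 and 759 in untreated cells (0.82 ± 0.21, adjusted p = 0.0424). In both the groups were apart. Id1 missed the threshold in 4 of the 7 fits without 1 library and Id2 in 6. Of the 28 factors on that list these were the only 2 that changed in the 33-library fit. The 10-library fit called 2 higher and 3 lower (2.63% and 4.76% of all genes). The 3 became 0 without doxycycline library 1, doxycycline library 3 or untreated library 3 titled day 5, and 1 without the untreated library titled day 3 or untreated library 1 titled day 5.

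The other rises above the median level were small. Lyst, the Chediak-Higashi gene of lysosome-related organelles, had 4116, 3681 and 4190.5 at day 3 and 2231, 2287, 2034 and 2629 in untreated cells (0.80 ± 0.19, adjusted p = 0.0253). Kdm7a, a histone demethylase gene, had 2874, 2875 and 3323 at day 3 and 1636, 2039.8, 2162 and 2043 in untreated cells (0.62, adjusted p = 0.0375). Galnt7, which starts O-linked sugar chains, had a log2 fold change of 0.60 (442, 507 and 473 at day 3; 292, 313, 332 and 314 in untreated cells). Arhgap19, a GTPase-activating protein gene, had a log2 fold change of 0.57 (1742, 1826 and 1899.6; 1251, 1255, 1218 and 1172). Cytip, Sdad1 and Add3 rose by 0.46, 0.44 and 0.34 on the log2 scale. These 7 calls lay close to the threshold, with adjusted p from 0.0253 to 0.0428, and 5 of them (Kdm7a, Galnt7, Arhgap19, Sdad1 and Add3) missed it in each of the 7 fits without 1 library.

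Part of the monocyte and macrophage genes were higher at day 3. Of 40 such genes 1 rose, Apoe, and none fell (0.134% and 0.946% of all genes). The median log2 fold change of the list was 0.10. In 13 the day 3 values were all above the untreated ones (9.6% of all genes). The 10-library fit called 6 higher and 1 lower (2.63% and 4.76% of all genes). The 6 became 2 without doxycycline library 1 and 1 without library 3, and 3 without the untreated library titled day 3 or either of untreated libraries 1 and 2 titled day 5. Apoe, a lipid carrier of macrophages, had 128, 46.7 and 114 at day 3 and 26.5, 37.2, 40.8 and 40.7 in untreated cells, with doxycycline library 2 near the untreated range (1.28 ± 0.28, adjusted p = 0.0178, 0.0508 in the 10-library fit, and missed without doxycycline library 1 or 3 or the untreated library titled day 3). Vcan, a matrix proteoglycan of monocytes, had 1046, 341 and 1008 at day 3 and 116, 171, 107 and 304 in untreated cells (2.15 ± 0.61, adjusted p = 0.0907, and 0.0326). Tgfbi, a secreted adhesion protein gene, had 12382, 11019.7 and 11512 at day 3 and 6452, 7075, 5776 and 8031 in untreated cells (0.78, adjusted p = 0.0548, and 0.0103). The scavenger receptor gene Msr1 had 76.1, 74.3 and 99.9 at day 3 and 31.7, 36.1, 38.8 and 46.4 in untreated cells (1.11 ± 0.33, adjusted p = 0.124). Fn1 had 42471, 12553 and 33289.7 at day 3 and 13672, 15072, 8168 and 15369 in untreated cells, again with library 2 apart. Csf1r, the receptor of the monocyte growth factor, and the monocyte surface gene Ly6c2 had log2 fold changes of -0.19 and -0.17.

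No gene of the neutrophil lists changed in the 33-library fit. Of 35 secondary granule and mature neutrophil genes 5 had an unadjusted p under 0.05 (1503 of 12682 over all genes). Their median log2 fold change was -0.28. Day 3 values were all below the untreated ones in 5 and all above them in 2 (11.9% and 9.6% of all genes). The 10-library fit called 2 higher (2.63% of all genes) and none lower. In 5 of the 7 fits without 1 library it called 0 higher. Those were the fits without doxycycline library 1 or 3, the untreated library titled day 3, or untreated library 1 or 2 titled day 5. Lyz2 was among the 2 (104115, 77482 and 103821 at day 3; 51885, 54959, 57555 and 72411 in untreated cells; 0.68, adjusted p = 0.294, and 0.0403). Mmp9, a gelatinase gene of mature neutrophils, was lower in every day 3 library, with 145, 241 and 347, against 974, 1282, 945 and 748 in untreated cells (-2.07 ± 0.84, adjusted p = 0.306, and 0.0577). Of 11 primary granule genes 1 had an unadjusted p under 0.05 and the 10-library fit called none. The log2 fold changes of Mpo and of the elastase gene Elane were 0.48 (95% interval -0.40 to 1.35) and 0.65 (-0.15 to 1.44).

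Mitosis genes were slightly higher at day 3. All 32 had a positive log2 fold change, with a median of 0.27. The summed level of the list overlapped, with 74829 to 84545 normalized counts at day 3 and 62196 to 75464 in untreated cells. In 19 of them the day 3 values were all above the untreated ones (9.6% of all genes). An unadjusted p under 0.05 was seen in 14 (1503 of 12682 over all genes). None passed the 33-library fit. The 10-library fit called 10 higher (2.63% of all genes), and between 1 and 11 when 1 library was left out. Cdk1, the kinase of mitotic entry, had 3210.1, 3116 and 3178 at day 3, against 2347, 2415, 2563 and 2429.9 in untreated cells (0.38, adjusted p = 0.0845, and 0.00304). The kinetochore gene Nuf2 had 622, 702 and 728 at day 3 and 441, 454, 518 and 422 in untreated cells (0.58 ± 0.22, adjusted p = 0.274, and 0.0209). The cyclin gene Ccnb1, whose product activates Cdk1, and the spindle midzone gene Prc1 had log2 fold changes of 0.48 and 0.41 (adjusted p = 0.193 and 0.0755, and 0.0446 and 0.0408 in the 10-library fit).

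Cdk6, the kinase that drives cells out of G1 with D cyclins and that the title names, did not pass at day 3. It had 11639.6, 12768 and 12440.3 normalized counts at day 3 and 15389, 14648, 12661 and 12973 in untreated cells, so 1 day 3 library lay inside the untreated range. Its log2 fold change was -0.18 ± 0.24 (adjusted p = 0.81), with a 95% interval of -0.66 to 0.31. None of the 21 genes of G1 cyclins, kinases and inhibitors passed the 33-library fit (2 had an unadjusted p under 0.05). Cdk4, the other kinase of this step, had a log2 fold change of -0.20 (adjusted p = 0.249), and the inhibitor gene Cdkn1a a log2 fold change of 0.38 (adjusted p = 0.392, and 0.0326 in the 10-library fit, the 1 call there). Of 38 DNA replication genes 1 fell, the clamp loader gene Rfc2, with 3303, 3612 and 3008 at day 3 and 4293, 4025, 4036 and 3999 in untreated cells (-0.31, adjusted p = 0.0394, missed in 6 of the 7 fits without 1 library).

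Other pathways had few calls. No gene passed the 33-library fit among 32 ribosome biogenesis, 13 Myc network, 41 ATF4 target and 12 mitochondrial protein quality genes. The same held for 21 cholesterol synthesis, 22 glycolysis, 22 p53 target and 10 Bcl2 family genes. In that order, the counts at an unadjusted p under 0.05 were 3, 2, 6, 2, 1, 3, 4 and 2 (1503 of 12682 over all genes). The glycolysis genes had a median log2 fold change of 0.29 and no call in the 10-library fit either. That fit called 2 p53 target genes higher and 1 lower, 1 cholesterol synthesis gene higher and 1 Bcl2 family gene lower. Over all genes it called 2.63% higher and 4.76% lower. Among the ATF4 targets it called 2 higher, 0 without doxycycline library 3, among them the proline synthesis gene Pycr1 (133, 147 and 173 at day 3; 89.8, 91.9, 61.2 and 70.0 in untreated cells; 0.95, adjusted p = 0.187, and 0.0166). Of 22 heat shock and unfolded protein genes none passed the 33-library fit (3 at an unadjusted p under 0.05; 1 higher and 2 lower in the 10-library fit). The nearest was the sensor kinase gene Ern1 (-0.57, adjusted p = 0.0638). Of 22 immediate early genes 1 fell, the phosphatase gene Dusp5, with 41.4, 44.6 and 31.2 at day 3 and 96.0, 86.1, 107 and 67.2 in untreated cells (-1.16, adjusted p = 0.0409, missed in 6 of the 7 fits without 1 library). None of 21 cytokine receptor genes passed the 33-library fit (2 at an unadjusted p under 0.05). The 10-library fit called 4 lower (4.76% of all genes), and 2 without doxycycline library 3.

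Marker lists of other cell types were low in both groups, and some were lower at day 3. Erythroid genes summed to 250 to 349 normalized counts at day 3 and 251 to 558 in untreated cells, of which the transferrin receptor gene Tfrc held 92.6%, and megakaryocyte genes to 48.9 to 63.5 and 60.6 to 75.6. Eosinophil genes summed to 347 to 366 and 337 to 416. None of these 3 lists had a call in the 33-library fit or in the 10-library fit, and 0, 1 and 1 of their genes had an unadjusted p under 0.05. B cell genes summed to 1696 to 1768 at day 3 and 1965 to 2149 in untreated cells, with 90.2% from Cd79b. Of 16 tested 1 fell, the recombinase gene Rag2, with 0, 0 and 1.04 at day 3 and 7.15, 11.6, 14.6 and 9.46 in untreated cells (adjusted p = 0.00399). T and NK cell genes summed to 768 to 853 and 1254 to 2522, with 96.8% from the costimulatory receptor gene Cd28. Cd28 had 820.1, 820.0 and 746 at day 3 and 2462, 1191, 1940.5 and 1572 in untreated cells (-1.12, adjusted p = 0.206, and 0.0402). Basophil and mast cell genes summed to 357 to 443 and 493 to 632; 9 of 17 had no read in the 7 libraries and 1 fell (Cpa3). Endothelial and stromal genes summed to 1833 to 2359 and 3679 to 4298, with 96.7% from the adhesion gene Pecam1. Pecam1, also expressed by myeloid cells, was the 1 of 6 tested that fell, with 1745, 2272 and 1879.8 at day 3 and 4176, 3734, 3675 and 3559.7 in untreated cells (-0.95, adjusted p = 0.00572). The part of other cell types in these values was not tested.

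Many of the falls were also seen after 3 days of doxycycline in cells with another NUP98 fusion. Of the 120 genes that fell, 72 (60%) also fell in NUP98-JARID1A cells, where 7.61% of all genes did, and 44 (36.7%) in NUP98-NSD1 cells, where 4.57% did. Both models shared 32 of the 120, and 36 fell in neither. The shared genes made up 7.46% of the falls in NUP98-JARID1A and 7.59% of those in NUP98-NSD1. Of the same 120 genes, 1 rose in NUP98-JARID1A and 4 in NUP98-NSD1. Of the 17 rises, 9 (52.9%) also rose in NUP98-JARID1A (8.11% of all genes) and 3 (17.6%) in NUP98-NSD1 (4.55% of all genes), which is 0.875% and 0.52% of the rises there. A single rise, Saa3, went with a fall in NUP98-NSD1. Each model has its own untreated libraries, while the spread of the fit is shared. Without 1 of the 7 NUP98-DDX10 libraries, between 30 and 76 genes were shared with either model, against 93 with all of them. The counts were 30 without doxycycline library 1, 39 without library 3, 50 without the untreated library titled day 3, and 50 and 55 without untreated libraries 1 and 2 titled day 5.

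Hoxa7 and Meis1 fell in all 3 models. Hoxa7 had log2 fold changes of -1.31 with NUP98-DDX10, -1.30 with NUP98-JARID1A and -0.98 with NUP98-NSD1, and Meis1 had -2.31, -1.78 and -1.57, each past the threshold. For Hoxa10 the values were -1.78, -1.01 and -0.87, and the difference between NUP98-DDX10 and the mean of the other 2 was -0.84 ± 0.24 (adjusted p = 0.0662). Cdk6, at -0.18 in NUP98-DDX10, was at -0.86 (adjusted p = 0.0127) in NUP98-JARID1A and -0.98 (adjusted p = 0.00802) in NUP98-NSD1, but its difference of 0.74 ± 0.29 did not pass (adjusted p = 0.209). Interferon genes had median log2 fold changes of -0.73, -0.64 and -0.30, and MHC class II genes of -1.15, 0.36 and 0.48; none of the genes of these 2 lists passed the test of the difference.

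That test, of the day 3 effect in NUP98-DDX10 minus the mean effect in the other 2 models, called 215 of 12682 genes (1.7%), 61 with a higher effect in NUP98-DDX10 (0.481%) and 154 with a lower one (1.21%). The 215 became 123 without NUP98-DDX10 doxycycline library 1, 67 without library 3, 141 without the untreated library titled day 3 and 133 without untreated library 3 titled day 5. Of the 215, 21 also changed within NUP98-DDX10, where 1.08% of all genes did. Both tests use the same NUP98-DDX10 libraries, so some overlap is built in. Spata13, a guanine nucleotide exchange factor gene, had log2 fold changes of 0.24 with NUP98-DDX10, -0.43 with NUP98-JARID1A and -1.17 with NUP98-NSD1, a difference of 1.04 ± 0.13 (adjusted p = 2.2e-05). The HMG-box gene Bbx had 0.22, -1.70 and 0.14, so its difference of 0.99 ± 0.15 came with the NUP98-JARID1A value. Ifi30, a lysosomal thiol reductase gene of antigen processing, had 0.03 in NUP98-DDX10, where its values overlapped, and 1.52 and 1.27 in the other models (difference -1.36 ± 0.20, adjusted p = 0.000318). Cd302, a C-type lectin receptor gene of myeloid cells, had 0.38, 1.61 and 2.26 (-1.56 ± 0.23, adjusted p = 0.000318). Camk1d, a calcium-dependent kinase gene, had -0.31, 0.37 and 1.54 (-1.27 ± 0.17), and Sgms1, a sphingomyelin synthase gene, 0.04, 1.13 and 0.59 (-0.83 ± 0.10).

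Olfm1 was among the genes that fell within NUP98-DDX10, with 2265, 2711 and 1869 at day 3 and 4316, 3358, 3779 and 3361 in untreated cells. Its log2 fold change was -0.71 (adjusted p = 0.00819), against 0.26 in NUP98-JARID1A and 0.56 in NUP98-NSD1, a difference of -1.12 ± 0.17 (adjusted p = 0.000612). Bace1, a membrane protease gene, fell less in NUP98-DDX10 (-0.52, adjusted p = 0.011) than in the other models (-1.02 and -1.41), a difference of 0.70 ± 0.13 (adjusted p = 0.00462). Eya1 had no read in any NUP98-JARID1A or NUP98-NSD1 library, treated or not, so its difference of -1.35 ± 0.22 is its fall in NUP98-DDX10 alone. Cdk19, Lars2 and Top3b had log2 fold changes of 0.09, 0.42 and -0.09 in NUP98-DDX10, against -0.71, -0.56 and -1.03 in NUP98-JARID1A and -0.72, -0.32 and -0.39 in NUP98-NSD1. Outside the rule for named genes, Saa3 had 2.67 with NUP98-DDX10, 1.18 with NUP98-JARID1A and -1.36 with NUP98-NSD1, a difference of 2.77 ± 0.52 (adjusted p = 0.00395).

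**Figure D5:**
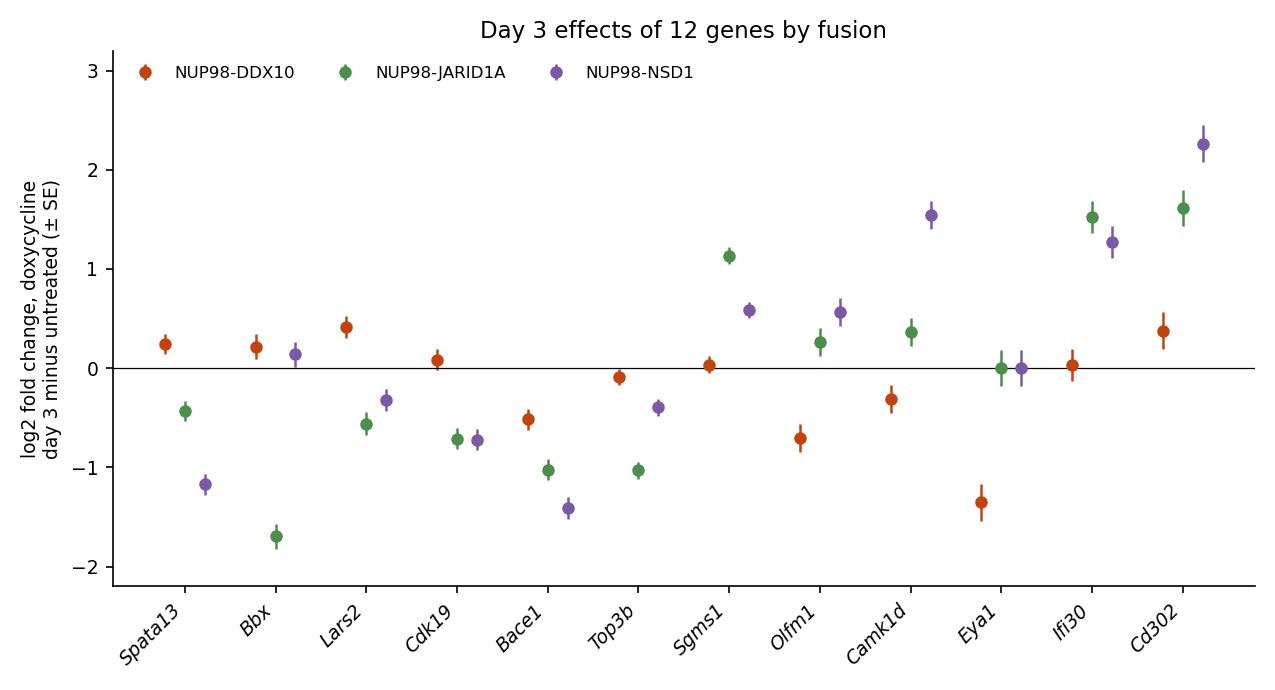
Day 3 effect of doxycycline, as log2 fold change with its SE in the 33-library fit, of NUP98-DDX10, NUP98-JARID1A and NUP98-NSD1 cells for the 12 genes with the smallest p, 6 in each direction, in the test of the difference between models. Ifi30, Sgms1 and Cdk19 lie near 0 in NUP98-DDX10 and away from it in the other models, and Eya1 lies away from 0 in NUP98-DDX10 alone.

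After 5 days of doxycycline several of these genes lay further from the untreated values. The day 5 and day 3 effects share the untreated libraries, so the values are set side by side without a test between them. Meis1 had a mean of 1823 in untreated cells, and values of 348, 406 and 336 at day 3 and 198, 158 and 166 at day 5. Hoxa10 had 299.9, 251 and 298 at day 3 and 199.8, 176 and 95.2 at day 5, and Hoxa9 had 653, 551 and 577 and then 563, 452 and 421. Cdk6 fell at day 5, with 8687, 7274 and 7445 (-0.83 ± 0.24, adjusted p = 0.0165), all below the day 3 values. Kit, on both sides of the untreated range at day 3, had 612, 376 and 423 at day 5 (-1.40 ± 0.38, adjusted p = 0.0125). Among genes higher at day 3, Id2 had 1086, 964 and 1119 at day 3 and 1925, 2682 and 2177 at day 5, Vcan 1046, 341 and 1008 and then 2331, 3221 and 3644, and Saa3 79.4, 123 and 129 and then 462, 589 and 182. Eya1 was at much the same level on both days, with 483, 489.6 and 439 at day 3 and 475, 465 and 482 at day 5. The fusion transcript itself was as low at day 5 (6.59, 4.30 and 8.01) as at day 3. The median log2 fold change of the interferon list was -0.73 at day 3 and -0.95 at day 5, and that of the mitosis list 0.27 and 0.22.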

How the data were processed

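Total RNA of sorted cells was made into stranded poly-A libraries and sequenced, per the labels' protocols. The authors named FastQC, STAR, SAMtools, featureCounts and DESeq2, with the builds GRCm38 and mm10 and no versions, per the submitters' processing notes; the ChIP tools named there were not used here. The deposited values are normalized counts (a signal per gene, not scaled by length). Their steps gave whole reads in 100% of values, within 0.01 reads, so the depth per library is known and edgeR and DESeq2 could be run on those reads as alternatives. Symbols and positions came from RefSeq's GRCm38.p6 tables for 24376 of 24454 genes. The labels carry the groups. No 2 libraries of a group agreed within sampling noise (chi-square per degree of freedom 6.91 to 26.1).

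The test was limma 3.58.1 (R 4.3.3) on log2(value + 1), 1 fit of 10 group means over 33 libraries with a mean-variance trend, for the 12682 genes that reached a value of 10 in 3 or more libraries, with Benjamini-Hochberg adjustment over all of them. A value after ± is an SE beside a log2 fold change and an SD beside a mean. Fold changes on this scale understate the change of genes with few reads. An exact permutation test of 3 against 4 libraries cannot go below p = 0.0286. The alternatives were edgeR 4.0.16, DESeq2 1.42.0, other pseudocounts and filters, quantile normalization, other sets of libraries, a replicate block and fits without 1 library. The scripts were tested on simulated data. The members and lists were chosen with earlier results of these data known. Named were the 15 largest falls and 8 rises above the median level with no overlap, the members of each list with the lowest adjusted p (at most 4), Cdk6, Nup98, Ddx10, the constructs and 6 genes in each direction of the difference between models. Other list members are examples chosen after their values were seen. The values of some list members are not reported here. The 2 ChIP samples were not analysed here.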

Additional observations from a re-analysis of the deposited data

Results flagged for a closer look

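In 3 of the 105 features named above, 1 of the 4 untreated libraries lay far from the other 3, by a gap that takes up most of their range (past Dixon's 95% critical value), which chance gives in about 1 of 20 groups of 4. The share of the range was 0.884 for Hoxa9 (the untreated library titled day 3 highest), 0.873 for Rfc2 (the same library highest) and 0.871 for Saa3 (untreated library 3 titled day 5 highest).

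The 12 genes listed here were named for the smallest p, in each direction, in the test of the difference between models. That their day 3 effect in NUP98-DDX10 differed from the mean effect in NUP98-JARID1A and NUP98-NSD1 follows from this choice. Saa3, named outside that rule, also passed the test, as given above. On the log2 scale the difference was 1.04 for Spata13, 0.99 for Bbx, 0.86 for Lars2, 0.80 for Cdk19, 0.70 for Bace1 and 0.62 for Top3b. It was -1.56 for Cd302, -1.36 for Ifi30, -1.35 for Eya1, -1.27 for Camk1d, -1.12 for Olfm1 and -0.83 for Sgms1.

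The NUP98-HOXA9 construct, which no group of the series carries by its labels, was listed at up to 7.15 normalized counts in the 7 NUP98-DDX10 libraries (mean 4.29 ± 1.02 at day 3 and 5.00 ± 2.02 in untreated cells) and at 0 in the controls.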

How the results depend on the processing

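The 137 genes that changed at day 3 became 235 with DESeq2, 937 in the fit of the 10 NUP98-DDX10 libraries, 585 in a fit of the 7 libraries compared, 73 with the untreated libraries titled day 5 only, 14 with the untreated library titled day 3 only, and 46 to 108 without 1 library; a fit of 30 libraries without the controls, added after seeing the data, gave 413. The falls outnumbered the rises in each of these. The 215 genes of the difference between models became 419 with DESeq2, 450 against NUP98-JARID1A alone, 615 with 30 libraries, and 67 to 274 over 21 fits without 1 library. The 93 shared genes became 152 with DESeq2, 275 with 30 libraries and 30 to 76 without 1 library. The causes of these changes in number were not tested. With the replicate number as a block, 92 genes changed at day 3, and 108 differed between models. The deviations of same-numbered day 3 and untreated day 5 libraries had correlations of 0.033, 0.043 and -0.023. Those of differently numbered libraries ran from -0.12 to 0.094. With 3 libraries on each side, this cannot decide whether the numbers pair them. EdgeR, other pseudocounts, other filters and quantile normalization kept all 3 counts within 1.5 times.

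Only results with a log2 fold change near 0 changed sign. With the untreated library titled day 3 only, Skap2 was at 0.012, Flt3 at 0.38, Cdk19 at -0.072, Sgms1 at -0.0093 and Ifi30 at -0.13; with those titled day 5 only, Nup98 was at 0.037. Flt3 was at 0.051 with edgeR and 0.035 with DESeq2. Without 1 library at a time, Nup98 ran from -0.11 to 0.037, Kit from -0.20 to 0.048, Flt3 from -0.27 to 0.38, Sgms1 from -0.065 to 0.11 and Ifi30 from -0.033 to 0.13. The median of all genes was -0.01 in the main fit. Over the other settings it ran from -0.018 (untreated library titled day 3 only) to 0.025 (quantile normalization).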
